A study of Homo sapiens with 9 samples.

Results

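The 10 genes described here encode CRYAB (alpha-B crystallin) and 9 other heat shock proteins or their partners of the cytosol, namely HSPB1, HSPB8, HSPA1A, HSPA1B, HSPA8, DNAJB1, HSPH1, BAG3 and HSP90AA1. They were found by gene symbol among 21619 genes, and all 10 were among the 13458 genes abundant enough to be tested. The genes were chosen by their behaviour in the comparison reported below, so their differences between the groups are given as a description and are not evidence that the family differs. The data are RNA-seq of polysome-associated RNA from 9 mammary tumours grown in mice from MDA-MB-231, an established human triple-negative breast cancer line, carrying the ribosomal protein L10a fused to EGFP. In 5 tumours the cancer cells had gone into the mammary fat pad mixed in equal parts with mesenchymal stem cells (MSC) from human bone marrow, and in the other 4 they had been injected alone. All tumours carried the EGFP-L10a tag and were taken after 3 weeks, each from its own mouse. Ribosomes were pulled down from whole tumour lysate with an antibody to the tag (translating ribosome affinity purification), so the RNA is that of the tagged cancer cells plus whatever is carried over from MSC, host mouse cells and the rest of the lysate. The tumours stand for 1 cell line. None of the sources used here gives the promoter driving the tag, the MSC donors, the host strain or the immune cells it still has.

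Heat shock proteins are chaperones that bind unfolded or damaged proteins. Small heat shock proteins hold such proteins without using ATP. HSP70 folds them in cycles of ATP hydrolysis, started by J-domain proteins such as DNAJB1 and ended by nucleotide exchange factors such as HSPH1 and BAG3, and HSP90 acts on a later set of clients such as kinases and hormone receptors. Transcription of many of these genes is raised under protein stress by the heat shock factor HSF1, which binds repeats of the bases GAA in alternating orientation. CRYAB is abundant in lens, heart and skeletal muscle and is also expressed in basal-like breast cancers.

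The promoters of 7 of the genes are shown because they hold at least 2 units of the repeat that HSF1 recognises. The sequences are the 250 bases before a RefSeq transcription start of build GRCh38.p14, read 5′ to 3′ on the gene's strand, with matches to the repeat in capitals.
HSPB1 (chr7:76302423-76302672, plus strand): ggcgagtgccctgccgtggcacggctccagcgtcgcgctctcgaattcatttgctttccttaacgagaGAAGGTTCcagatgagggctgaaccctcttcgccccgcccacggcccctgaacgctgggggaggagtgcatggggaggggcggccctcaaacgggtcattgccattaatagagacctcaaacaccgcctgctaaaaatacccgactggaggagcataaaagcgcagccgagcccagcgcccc
HSPB8 (chr12:119178681-119178930, plus strand): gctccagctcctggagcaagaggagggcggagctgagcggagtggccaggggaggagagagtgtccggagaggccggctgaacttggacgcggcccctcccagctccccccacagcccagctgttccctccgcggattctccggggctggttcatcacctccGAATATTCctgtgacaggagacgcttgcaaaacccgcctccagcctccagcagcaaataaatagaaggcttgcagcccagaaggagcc
HSPA1A (chr6:31815293-31815542, plus strand): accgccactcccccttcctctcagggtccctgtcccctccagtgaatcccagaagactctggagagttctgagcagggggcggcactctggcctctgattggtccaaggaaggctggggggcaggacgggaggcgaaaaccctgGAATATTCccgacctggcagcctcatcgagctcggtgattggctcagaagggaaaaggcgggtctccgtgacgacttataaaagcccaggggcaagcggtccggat
HSPA1B (chr6:31827488-31827737, plus strand): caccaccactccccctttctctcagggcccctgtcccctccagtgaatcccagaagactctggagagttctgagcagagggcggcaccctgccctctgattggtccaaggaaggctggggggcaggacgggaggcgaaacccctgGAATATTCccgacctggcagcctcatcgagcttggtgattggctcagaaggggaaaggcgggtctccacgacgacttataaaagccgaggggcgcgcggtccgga
DNAJB1 (chr19:14518398-14518647, minus strand): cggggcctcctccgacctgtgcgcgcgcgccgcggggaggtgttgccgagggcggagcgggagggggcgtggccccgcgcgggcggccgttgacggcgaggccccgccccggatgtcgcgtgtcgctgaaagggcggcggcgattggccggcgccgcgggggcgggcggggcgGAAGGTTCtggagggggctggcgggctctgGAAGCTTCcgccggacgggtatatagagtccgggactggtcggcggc
HSPA8 (chr11:123062137-123062386, minus strand): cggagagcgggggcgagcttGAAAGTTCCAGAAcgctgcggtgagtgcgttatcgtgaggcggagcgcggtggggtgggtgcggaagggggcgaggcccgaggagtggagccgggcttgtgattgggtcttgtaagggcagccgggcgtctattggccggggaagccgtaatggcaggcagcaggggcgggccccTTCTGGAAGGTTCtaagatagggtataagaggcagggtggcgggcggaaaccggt
HSP90AA1 (chr14:102087045-102087294, minus strand): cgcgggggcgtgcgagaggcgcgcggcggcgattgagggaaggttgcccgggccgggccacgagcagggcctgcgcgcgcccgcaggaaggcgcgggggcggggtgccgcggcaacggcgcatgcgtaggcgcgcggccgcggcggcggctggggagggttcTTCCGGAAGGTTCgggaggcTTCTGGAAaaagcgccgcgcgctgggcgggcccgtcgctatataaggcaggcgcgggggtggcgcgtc
The motifs searched were GAANNTTC or TTCNNGAA, which hold 2 units of the repeat, and GAANNTTCNNGAA or TTCNNGAANNTTC, which hold 3 and contain overlapping matches to the shorter motif. Each motif of the first pair reads the same on both strands and those of the second pair are reverse complements, so both strands were covered. RefSeq entries were matched for 9 of the 10 genes, with 12 starts in all, and CRYAB had none in the table. A motif of 2 units was present in 7 of these 12 windows (58.3%), against 11.6% of all 35116 windows of the same length, and 1 of 3 units in 2 of them (16.7%), against 0.441%. HSPA8 had 2 of the longer matches, their first bases 230 and 55 bases before the start. HSP90AA1 had 1, 88 bases before (at 1 of its 2 starts). HSPB1, HSPB8, HSPA1A, HSPA1B and DNAJB1 had the shorter match alone, beginning 182 bases before the start in HSPB1, 88 in HSPB8, 106 in HSPA1A and 105 in HSPA1B, with matches at 77 and 47 in DNAJB1 (at 1 of its 3 starts). The windows of HSPH1 and BAG3 held neither motif. HSPA1A and HSPA1B, neighbouring genes that encode nearly the same protein, had 235 of 249 aligned bases in common (94.4%). A match describes these letters only, and no binding was measured.

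Of the 10 genes, 2 were called higher with MSC (CRYAB and HSPB1) and 0 lower by edgeR's quasi-likelihood test at a Benjamini-Hochberg adjusted p of 0.05 over all tested genes. Over all 13458 genes 7.78% were called, 4.18% higher and 3.6% lower. Log2 changes, with MSC minus without, were positive for 7 of the 10 genes and negative for 3, with a median of 0.705, while the median of all tested genes was 0.009. Since these genes were picked from this comparison, nothing is read from their share of calls or their median. The 3 small heat shock proteins had changes of 0.86 to 2.59 (HSPB8 without a call), the HSP70 genes HSPA1A and HSPA1B and their partner DNAJB1 had changes of 0.60 to 0.89 without a call, and HSPA8, HSPH1, BAG3 and HSP90AA1 had changes between -0.18 and 0.03. The plot of CPM (counts scaled to a common library size, with TMM factors) shows every tumour.

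**Figure D1:**
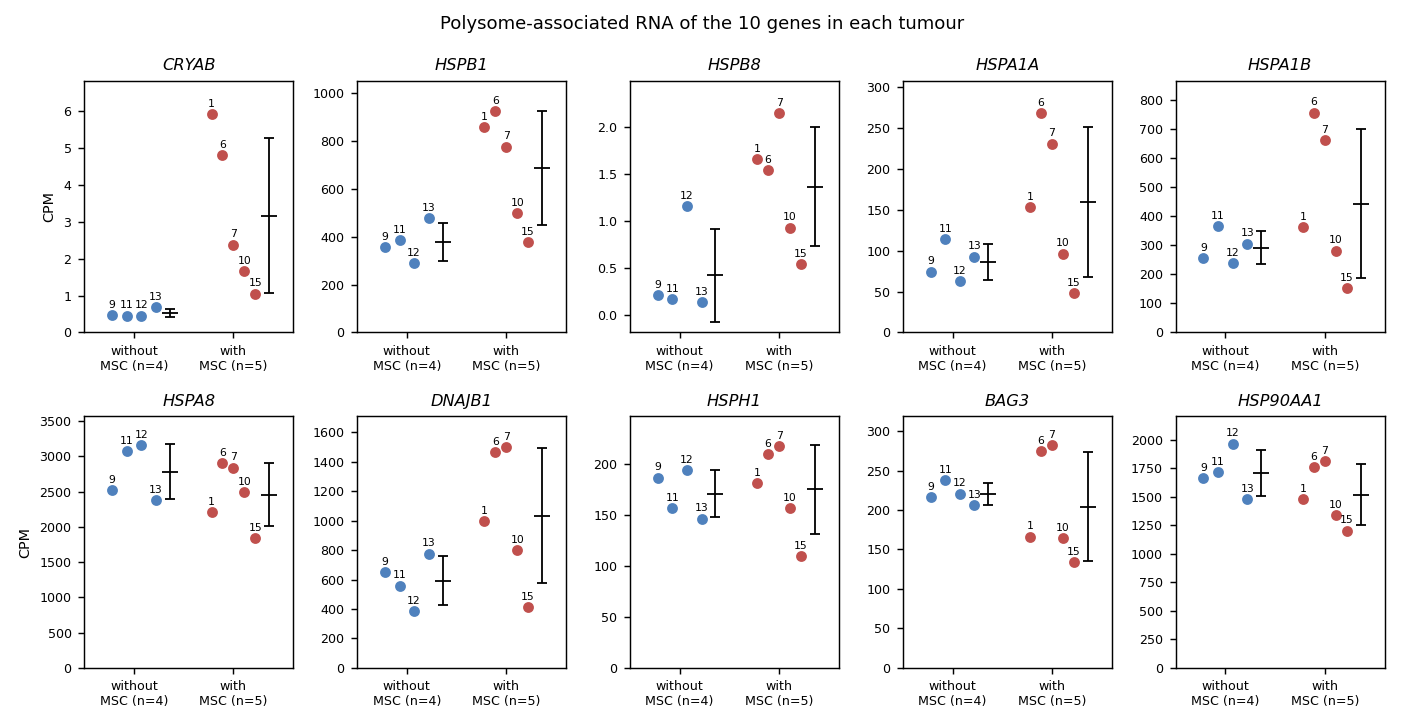
Level of each of the 10 genes in CPM (vertical axes, linear, each panel on its own scale) in the 4 tumours without MSC (blue) and the 5 with MSC (red), each point labelled with its tumour number. Black bars are mean ± SD. CRYAB is the gene whose 2 groups do not overlap, and tumour 15 is the lowest of the 5 red points in every panel.

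Whole-library facts bear on these values as follows. Gene counts per library ran from 24616792 to 65275226. The 10 genes together took 0.486 to 0.822% of gene counts with MSC and 0.597 to 0.642% without. Of the markers of the line, VIM, the mesenchymal filament gene, was at 8976 ± 2114 CPM with MSC (SD, n = 5) and 7380 ± 589 without (SD, n = 4), while of 8 luminal genes the hormone receptors ESR1 and PGR, the cadherin CDH1 and FOXA1 had means of at most 0.0531 CPM in either group. The other 4 luminal genes were expressed, with means with MSC of 342 CPM for the keratin KRT19, 28.0 for ERBB2, 10.6 for EPCAM and 4.40 for GATA3. Tumour 15 stood apart for fibroblast and MSC markers, with a mean log2 level over 14 genes of 3.29 against 0.718 to 1.31 in the other 4 tumours with MSC and 0.240 to 0.938 in those without. The 8 markers of mesenchymal breast cancer lines, VIM among them, had mean log2 levels of 8.79 to 8.97 with MSC and 8.36 to 8.61 without (exact two-sided permutation p = 0.00794, adjusted over 10 lists 0.0397). This list was chosen with earlier results of these data known, so its test is not independent evidence of a difference. The part of MSC RNA in its level was not tested. Skeletal muscle markers stood high in tumours 1 and 6 (below). Total tumour RNA was not analysed here, so more RNA and more ribosomes per RNA cannot be told apart. In bulk tumours, fewer cells of a type and less RNA per cell cannot be told apart either.

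CRYAB, which holds unfolded proteins and stabilises desmin filaments in muscle, was a scarce RNA in these tumours and the gene with the widest difference of the 10. With MSC it was 5.93, 4.81, 2.38, 1.67 and 1.06 CPM in tumours 1, 6, 7, 10 and 15. Without MSC it was 0.471, 0.458, 0.455 and 0.689 CPM in tumours 9, 11, 12 and 13. Every tumour with MSC was above every tumour without, a separation that 5.13% of tested genes showed in this direction and 4.87% in the other. Within the group with MSC the level varied 5.61-fold, and within the other 1.51-fold. The means were 3.17 ± 2.10 CPM (SD, n = 5) and 0.518 ± 0.114 CPM (SD, n = 4), and the log2 change was 2.59 ± 0.46 (SE, edgeR adjusted p = 0.00403). These levels rest on 37 to 225 counts per library with MSC and 11 to 31 without. CRYAB kept its call when any 1 tumour was left out, with changes of 2.24 to 2.81, and lost it in limma-voom with quality weights (adjusted p = 0.0864).

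Tumours 1 and 6, the highest for CRYAB, were also the highest for skeletal muscle markers. The summed level of 10 such genes was 10.96 CPM in tumour 1 and 18.11 in tumour 6, and 0.416, 0.847 and 0.600 in tumours 7, 10 and 15. Without MSC it was 2.33, 0.523, 0.910 and 0.849 CPM in tumours 9, 11, 12 and 13. The alpha-actin of skeletal muscle, ACTA1, was 4.19 and 9.54 CPM in tumours 1 and 6 and at most 0.486 in the others. The fast myosin heavy chain MYH2 was 1.37 and 2.15 CPM in these tumours and at most 0.304 in the others, MYH1 1.19 and 1.08 against at most 0.547, and the troponin TNNT3 0.791 and 1.61 against at most 0.416. MYH4 and TNNC2 were also highest in tumours 1 and 6. MYLPF and MB were highest in tumour 1 (0.817 and 1.19 CPM) but not high in tumour 6 (0.215 and 0.251). They reached 0.350 CPM in tumour 9 and 0.496 in tumour 12. MYL1 was 0 in tumour 1 and 0.108 CPM in tumour 6. Creatine kinase CKM was near 0 in all 9 tumours, at most 0.0571 CPM. Over the groups, the muscle list's mean log2 level was -2.35 with MSC and -3.19 without (exact two-sided permutation test, p = 0.381, adjusted over 10 lists 0.544, the smallest possible p being 0.00794). In tumours 7, 10 and 15 the muscle sum lay within or below the range of the tumours without MSC, and CRYAB in these 3 was above its level in all 4 of those. Without tumours 1 and 6, the log2 change of CRYAB was 1.70 and its call was lost (edgeR adjusted p = 0.1), while calls over all genes fell to 74 higher and 51 lower. The part of muscle RNA in the CRYAB level was not tested.

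**Figure D2:**
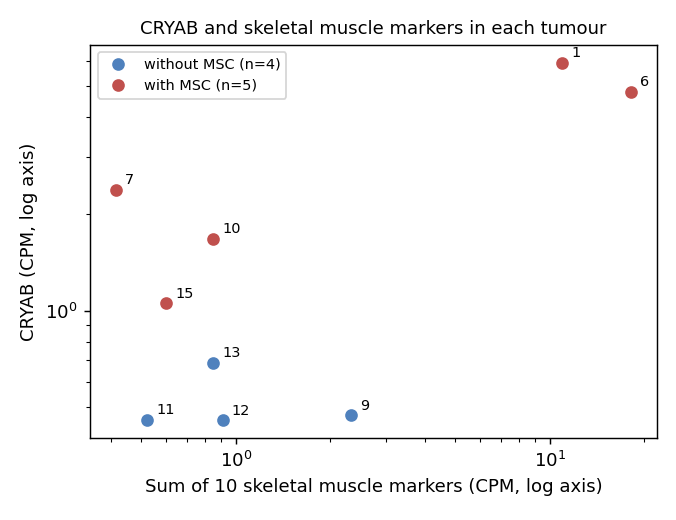
CRYAB level (CPM, log axis) against the summed level of 10 skeletal muscle marker genes (CPM, log axis), 1 point per tumour, numbered, red with MSC and blue without. Tumours 1 and 6 lie at the upper right, and tumours 7, 10 and 15 lie above all blue points at muscle sums of 0.416 to 0.847 CPM.

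Smooth muscle can also carry CRYAB. Its 8 markers had a mean log2 level of -1.80 with MSC and -2.24 without (exact two-sided permutation p = 0.143, adjusted 0.238). Their sum went the other way, 4.31 to 5.37 CPM with MSC and 5.21 to 6.73 without, and rested mostly on the actins ACTA2 and ACTG2. ACTG2 fell by 1.00 ± 0.27 on the log2 scale (edgeR adjusted p = 0.0282), a call lost without tumours 1, 9, 10, 11 or 15 (up to 0.0977). The call was also lost without tumours 1 and 6 (0.109) or 12 and 15 (0.0546) together. DES, the desmin filament gene of all muscle, averaged 0.332 CPM with MSC and 0.0038 without, with 0.817, 0.430, 0, 0.0403 and 0.371 CPM in tumours 1, 6, 7, 10 and 15. The smooth muscle myosin MYH11 averaged 0.370 and 0.0939 CPM and was highest in tumour 15 (0.999), and MYOCD, the regulator of the smooth muscle programme, was at 0 in all.

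Of the 14 fibroblast and MSC markers, 1 was called higher with MSC, COL1A2, a chain of type I collagen (4.18% of all tested genes were called higher). DCN, LUM, POSTN, PDGFRA and THY1 were too scarce to be tested. Each had a higher mean with MSC and overlapping groups, and DCN reached 18.9 CPM in tumour 15. COL1A2 was 2.64, 1.97, 1.37, 1.21 and 8.45 CPM in tumours 1, 6, 7, 10 and 15. In tumours 9, 11, 12 and 13 it was 0.699, 0.556, 0.538 and 0.528 CPM. Its groups did not overlap, as those of CRYAB did not, a separation that 5.13% of all tested genes showed in this direction. Its log2 change was 2.41 ± 0.51 (SE, edgeR adjusted p = 0.0104), and 1.61 without tumour 15, and the call was lost without tumour 12 (0.0765). The call was also lost in limma-voom with quality weights (log2 change 1.75, adjusted p = 0.149). The whole list had a mean log2 level of 1.42 with MSC and 0.493 without (exact two-sided permutation p = 0.0714, adjusted 0.179). The part of MSC or fibroblast RNA in the CRYAB level was not tested. Tumour 15, the highest for the fibroblast and MSC markers, was the lowest of its group for CRYAB. HSPB2, a small heat shock protein of muscle that lies head to head with CRYAB, had 0 counts in all 9 libraries, and the read-through HSPB2-C11orf52 had 1 count in all.

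With the group means removed, the genes that followed CRYAB most closely over the 9 tumours, of 10786 with a mean of at least 100 counts, were DCXR, a xylulose reductase (Pearson r = 0.958), the chemokine CCL26 (0.954), ANKRD1, an ankyrin repeat gene of heart and muscle and a target of YAP (0.946), NDUFB2, a subunit of respiratory complex I (0.939), and C22orf39 (0.939). CCL26 was 21.1, 21.4, 14.9, 10.3 and 7.02 CPM in tumours 1, 6, 7, 10 and 15. ANKRD1 was 197, 186, 164, 117 and 108 CPM in the same tumours, so the order of the 5 tumours was nearly that of CRYAB. All points share a library's depth and scaling, and 16 of the 10786 genes reached an r of 0.9. Among the 10 heat shock genes, HSPB1 was the nearest to CRYAB (0.899) and HSPA8 the farthest (0.291).

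HSPB1 (HSP27), the small heat shock protein that caps actin filaments and is a common partner of CRYAB, was abundant. It was 858, 924, 777, 499 and 377 CPM in tumours 1, 6, 7, 10 and 15, and 355, 387, 291 and 478 in tumours 9, 11, 12 and 13. Tumours 1, 6 and 7 were above all others, tumour 10 was just above tumour 13, and tumour 15 lay inside the range without MSC, so the groups overlapped. The means were 687 ± 237 CPM (SD, n = 5) and 378 ± 78.1 CPM (SD, n = 4), with a log2 change of 0.86 ± 0.24 (SE, edgeR adjusted p = 0.0491). That call lay at the threshold: it held in 3 of the 9 fits that left out 1 tumour and was lost without tumours 1, 6, 7, 9, 11 or 12 (adjusted p up to 0.155), and over the 9 fits the change ran from 0.73 to 1.01. Reads of HSPB1 were 145 to 357 times those of CRYAB with MSC and 639 to 846 times without, ranges that do not overlap. CRYAB had the larger log2 change (2.59), so this ratio is not a separate result.

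HSPB8, which works with BAG3 to hand damaged proteins to autophagy, was as scarce as CRYAB. It was 1.66, 1.54, 2.15, 0.927 and 0.543 CPM with MSC (tumours 1, 6, 7, 10 and 15). Without MSC it was 0.213, 0.164, 1.16 and 0.138 CPM in tumours 9, 11, 12 and 13. Tumour 12 alone overlapped the group with MSC, and the other 3 were below all 5. The log2 change was 1.79 ± 0.64 (SE, edgeR adjusted p = 0.0873), not a call. Without tumour 12 it was 2.95 (edgeR adjusted p = 0.0104), and DESeq2 also called it (adjusted p = 0.0337). HSPB8 was called in 1 of the 9 fits that left out 1 tumour (adjusted p up to 0.211). It was called in 2 of 11 other alternatives (up to 0.286), and not in limma-voom with quality weights (0.0597) or with no filter (0.0609). The partner genes of HSPB8 and BAG3 in a list of 9 included 7 tested, with 0 called in either direction. The filamin FLNA, a client of BAG3, had 544 ± 50.5 CPM with MSC (SD, n = 5), and VIM had a log2 change of 0.28 ± 0.16.

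Other small heat shock proteins were mostly not detected. Of 7 listed genes, HSPB2, HSPB3 and HSPB9 had no counts, CRYAA and HSPB7 had mean levels below 0.04 CPM, and 2 were tested. HSPB6, expressed in muscle, was 0.578 ± 0.380 CPM with MSC (SD, n = 5), with a log2 change of 0.76 ± 0.80. HSPB11, named in this family but a component of the ciliary transport complex, fell by 0.43 ± 0.13 on the log2 scale (edgeR adjusted p = 0.0454). That call was lost without tumours 1, 6, 9, 10, 12 or 15 (adjusted p up to 0.163), and without tumours 1 and 6 (0.157) or 12 and 15 (0.247) together. It was also lost with the GC and length correction (0.0831), library size only (0.0556), limma-voom with quality weights (0.0845) and robust=FALSE.

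HSPA1A and HSPA1B, the stress-inducible HSP70 pair, varied more within the group with MSC than between groups. HSPA1A was 153, 269, 231, 96.4 and 48.1 CPM with MSC (tumours 1, 6, 7, 10 and 15) and 74.4, 115, 63.0 and 92.7 without (tumours 9, 11, 12 and 13). HSPA1B was 363, 757, 662, 282 and 152 CPM and 257, 367, 238 and 306 CPM in the same order. For both genes tumours 6 and 7 were the highest of the 9 and tumour 15 the lowest, and the groups overlapped. The level varied 5.59-fold among tumours with MSC for HSPA1A and 4.98-fold for HSPA1B, and 1.82-fold and 1.54-fold among those without. Log2 changes were 0.89 ± 0.50 for HSPA1A and 0.60 ± 0.46 for HSPA1B (SE, edgeR adjusted p = 0.323 and 0.472). Because the copies are nearly identical, a read can be counted for either or lost. Their sum was 603 ± 347 CPM with MSC (SD, n = 5) and 378 ± 80.2 without (SD, n = 4), with a log2 change of 0.67 ± 0.47 (edgeR adjusted p = 0.424).

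DNAJB1 (HSP40), the J-domain protein that delivers clients to these HSP70s, followed the same tumours. It was 999, 1465, 1498, 802 and 413 CPM with MSC (tumours 1, 6, 7, 10 and 15) and 650, 559, 384 and 777 CPM without (tumours 9, 11, 12 and 13). Tumours 1, 6, 7 and 10 were above all 4 tumours without MSC, and tumour 15 was below 3 of them. The log2 change was 0.81 ± 0.38 (SE, edgeR adjusted p = 0.226). It became a call without tumour 15, with a change of 1.01 (adjusted p = 0.0283), and in none of the other 8 fits that left out 1 tumour.

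HSPA6, a further stress-inducible HSP70 with very low basal expression, was among 8 other cytosolic HSP70 and HSP110 genes, of which 0 were called. It is singled out after its values were seen, because its pattern over the tumours was the widest. It was 88.0, 121, 127, 38.5 and 12.3 CPM in tumours 1, 6, 7, 10 and 15, and 11.1, 10.2, 2.81 and 20.5 in tumours 9, 11, 12 and 13. Tumours 1, 6, 7 and 10 were above all those without MSC, and tumour 15 was below tumour 13. The log2 change was 2.77 ± 0.82 (SE, edgeR adjusted p = 0.0891). It was past the threshold in DESeq2 (adjusted p = 0.00468), in limma-voom with quality weights (0.0373), with robust=FALSE (0.00629) and, in edgeR, without tumour 15 (0.0425), and in none of the other 8 fits that left out 1 tumour.

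**Figure D3:**
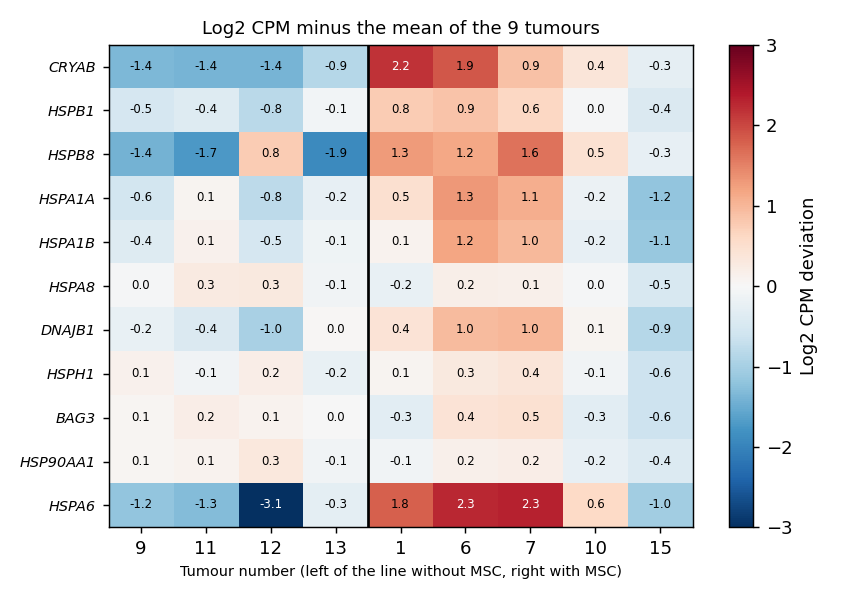
Log2 CPM (prior count 2) of the 10 genes and HSPA6 (rows) in each of the 9 tumours (columns), minus the mean of the row, in colour and as a number in each cell. Tumours left of the black line had no MSC. Tumours 1, 6 and 7 are red for CRYAB, HSPB1, HSPB8, HSPA1A, DNAJB1 and HSPA6, and tumour 15 is blue in every row.

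HSPA8 (HSC70), the constitutive HSP70 that folds new proteins and uncoats clathrin vesicles, was the most abundant of the 10. With the group means removed, its Pearson r over the 9 tumours was 0.7 with HSPA1A and 0.759 with HSPA1B. HSPA8 was 2211, 2901, 2842, 2498 and 1839 CPM with MSC (tumours 1, 6, 7, 10 and 15) and 2523, 3080, 3160 and 2381 without (tumours 9, 11, 12 and 13). The groups overlapped, tumours 11 and 12 were the highest and tumour 15 the lowest, and the log2 change was -0.18 ± 0.15 (SE, edgeR adjusted p = 0.476). The ratio of HSPA1A plus HSPA1B to HSPA8 reads within a library was 0.234, 0.353 and 0.314 in tumours 1, 6 and 7 and 0.0951 to 0.167 in the other 6 tumours of both groups. DNAJB1 reads per HSPA8 read were 0.452, 0.505 and 0.527 in tumours 1, 6 and 7 and at most 0.326 in the others. HSPB1 reads per HSPA8 read were 0.273 to 0.388 in the same 3 tumours and at most 0.205 in the others.

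**Figure D4:**
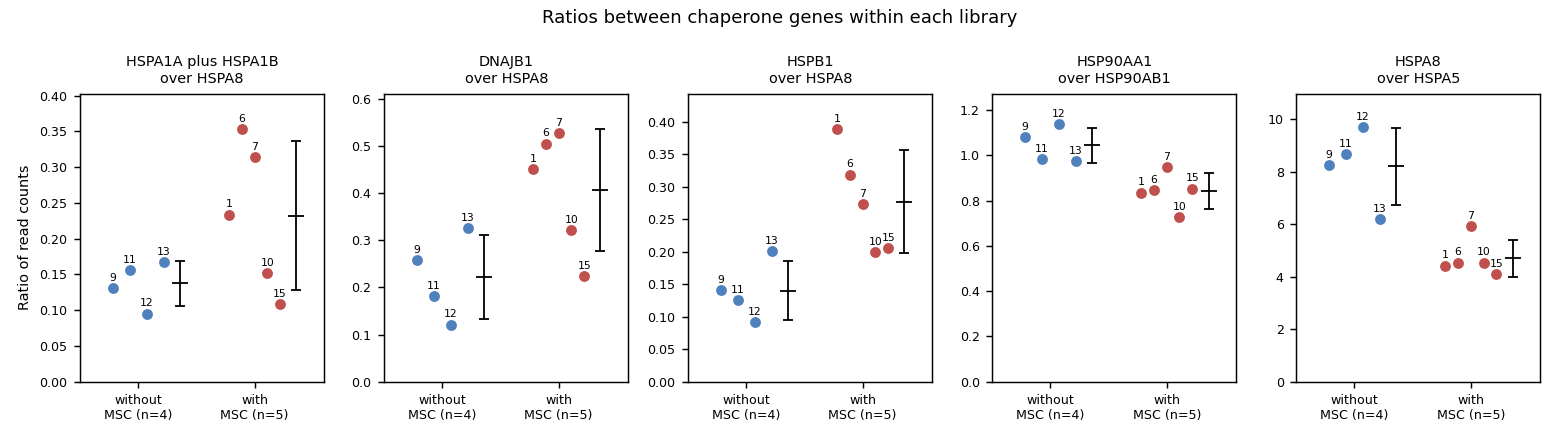
Ratios of read counts between chaperone genes within each library (vertical axes, linear from 0), 1 numbered point per tumour, blue without MSC and red with MSC, with mean ± SD as black bars. In the first 3 panels tumours 1, 6 and 7 are above all others, and in the panels of HSP90AA1 over HSP90AB1 and HSPA8 over HSPA5 every red point is below every blue point.

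HSPH1 (HSP110), an exchange factor that lets HSP70 dissolve aggregates, was 181, 209, 217, 157 and 110 CPM with MSC (tumours 1, 6, 7, 10 and 15) and 186, 156, 194 and 146 without (tumours 9, 11, 12 and 13). The groups overlapped, with a log2 change of 0.03 ± 0.16 (SE, edgeR adjusted p = 0.917). BAG3, the exchange factor of stress-induced autophagy, was 166, 275, 282, 165 and 134 CPM with MSC and 216, 238, 221 and 206 without, in the same order of tumours. Its 4 tumours without MSC lay within 1.16-fold of each other and between the high pair 6 and 7 and the low trio 1, 10 and 15. The log2 change was -0.11 ± 0.19 (SE, edgeR adjusted p = 0.768), and for both genes its sign depended on which tumour was left out, running from -0.05 to 0.16 for HSPH1 and from -0.25 to 0.009 for BAG3.

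HSP90AA1, the inducible cytosolic HSP90, was 1483, 1764, 1813, 1342 and 1204 CPM with MSC (tumours 1, 6, 7, 10 and 15) and 1662, 1721, 1968 and 1481 without (tumours 9, 11, 12 and 13). Tumour 15 was again the lowest and tumour 12 the highest. The groups overlapped, with a log2 change of -0.17 ± 0.14 (SE, edgeR adjusted p = 0.483). HSP90AB1, the constitutive HSP90, was 1807 ± 248 CPM with MSC (SD, n = 5) and 1636 without, with a log2 change of 0.14 ± 0.13. The ratio of HSP90AA1 to HSP90AB1 reads within a library was 0.834, 0.847, 0.948, 0.726 and 0.852 in tumours 1, 6, 7, 10 and 15, and 1.08, 0.983, 1.14 and 0.972 in tumours 9, 11, 12 and 13. All 5 ratios with MSC were below all 4 without, while neither gene was called on its own. Of 8 ratios between chaperone genes that were computed, 4 had groups that did not overlap. The share of ratios between other genes that separate in this way was not computed, so nothing is read from these counts. Processed pseudogenes of HSP90AA1, HSPA8 and HSPB1 and the close sequence of both HSP90 genes make these counts uncertain.

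Compared per kilobase of exon, the levels of the 10 genes spanned the range of the tested genes. In tumours with MSC, HSPA8 had 911 ± 165 CPM per kb, HSPB1 648 ± 224, DNAJB1 423 ± 187, HSP90AA1 378 ± 65.5 and HSPA1B 176 ± 102 (SD, n = 5). BAG3 followed with 79.5 ± 26.8 CPM per kb, HSPA1A with 64.3 ± 36.8, HSPH1 with 30.8 ± 7.68, CRYAB with 1.28 ± 0.845 and HSPB8 with 0.634 ± 0.294. DNAJB1 and HSP90AA1, and BAG3 and HSPA1A, were nearer to each other than their SD. Over all 9 tumours HSPA8 ranked at the 99.4th percentile of the tested genes with a length and HSPB1 at the 98.9th, while CRYAB ranked at the 20.9th and HSPB8 at the 14.7th. With the median transcript length in place of all exons, CRYAB was 2.04 in place of 0.802 CPM per kb over all tumours.

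With the group means removed, the 10 genes formed looser and tighter pairs over the 9 tumours. HSPA1A and HSPA1B, whose reads can be counted for either copy or lost, had a Pearson r of 0.988. DNAJB1 followed HSPA1A (0.916), HSPB1 (0.910) and HSPA1B (0.902). BAG3 followed HSPA1B (0.938), HSPA1A (0.88) and HSP90AA1 (0.872), and its r with CRYAB was 0.43. HSP90AA1 followed HSPH1 (0.911) and HSPA8 (0.883), and its r with DNAJB1 was 0.532. HSPB8 followed HSP90AA1 (0.814) more closely than HSPB1 (0.177). These are descriptions over 9 points that share depth and scaling. Tumour 15 was the lowest of its group for all 10 genes, and tumours 6 and 7 were among the 3 highest of all 9 tumours for 10 and 9 of them. Tumour 15 is also the tumour with the highest fibroblast and MSC markers, and a part of other cells in its low values was not tested.

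The rest of the cytosolic chaperone network, 77 genes in 7 lists of which 71 were tested, had a median log2 change of 0.011, with 37 positive and 34 negative. Among them 1 was called higher and 2 lower (4.23% called, against 7.78% of all tested genes). The gene called higher was HSF1, the main heat shock factor, at 228 ± 21.1 CPM with MSC (SD, n = 5) and 171 without, with a log2 change of 0.41 ± 0.12 (SE, edgeR adjusted p = 0.0371). That call was lost without tumours 1, 6, 9, 10, 11 or 12 (adjusted p up to 0.169), and also without tumours 1 and 6 (0.175) or 12 and 15 (0.164) together. With the GC and length correction the change of HSF1 was 0.20 (adjusted p = 0.245). HSF2, a factor of development, had a log2 change of -0.33 ± 0.16 (edgeR adjusted p = 0.208). VBP1, a subunit of prefoldin, which hands actin and tubulin to the chaperonin, fell by 0.55 ± 0.11 (edgeR adjusted p = 0.00746), and HSPB11 was the other gene called lower.

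By list, 0 of 17 other J-domain genes, 0 of 8 BAG and HSP70 cofactors and 0 of 16 HSP90 genes and co-chaperones were called. The most abundant of these J-domain genes were DNAJB6, a suppressor of aggregation (log2 change -0.26 ± 0.11), and DNAJC9 (-0.32 ± 0.10, edgeR adjusted p = 0.0545). DNAJC9 was lower in every tumour with MSC than in every tumour without, as were 4.87% of all tested genes. The most abundant cofactors were the BAG family gene BAG6 (0.10 ± 0.10) and the HSP70 cofactor ST13 (0.16 ± 0.11). After HSP90AB1, the most abundant gene of the HSP90 list was PTGES3 (p23), which stabilises closed HSP90 (-0.24 ± 0.12). Of 14 chaperonin and prefoldin genes, 10 had negative changes and 1, VBP1, was called. HSPA4, the HSP110 paralog of HSPH1, had a log2 change of 0.20 ± 0.10 and was not called.

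**Figure D5:**
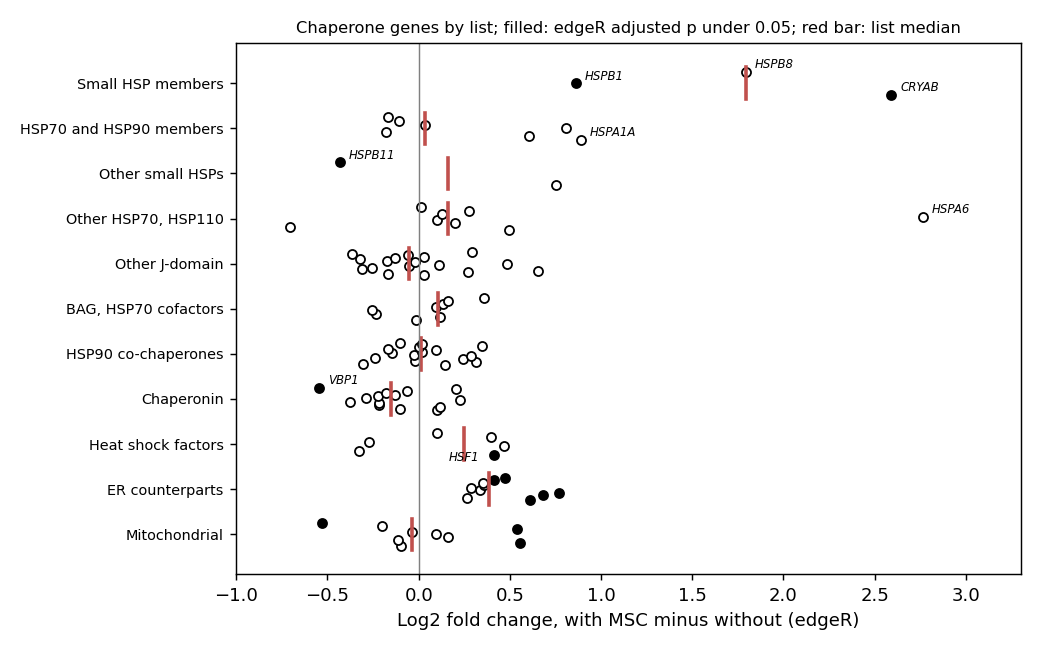
Log2 fold change with MSC minus without (horizontal axis, edgeR) of the 10 genes and of the tested genes in each list of the chaperone network and its counterparts (rows). Filled points have an adjusted p under 0.05, and red bars are list medians. CRYAB and HSPA6 lie farthest to the right, and all 10 counterparts of the endoplasmic reticulum lie above 0.

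Counterparts of these chaperones work in the endoplasmic reticulum (ER), where secreted proteins fold. All 10 listed ER genes had positive changes, with a median of 0.387, and 5 were called higher. Of all 13458 tested genes, 6883 had positive changes and 4.18% were called higher. HSPA5 (BiP), the HSP70 of the ER, had 524 ± 74.6 CPM with MSC (SD, n = 5) and 343 without, with a log2 change of 0.61 ± 0.12 (SE, edgeR adjusted p = 0.00641). HYOU1, its HSP110-like exchange factor, rose by 0.68 ± 0.13 (adjusted p = 0.00499), the J-domain gene DNAJB9 by 0.77 ± 0.15 (0.00666) and the isomerase PDIA4 by 0.41 ± 0.11 (0.0291), all by edgeR. The calls of HSPA5, HYOU1 and DNAJB9 held when any 1 tumour was left out. Those of HSPA5 and DNAJB9 were lost without tumours 1 and 6 together (adjusted p = 0.0632 and 0.0535). The call of PDIA4 was lost without tumours 1, 6, 9, 10 or 12 (adjusted p up to 0.0969), and without tumours 1 and 6 or 12 and 15 together (up to 0.181). HSP90B1, the HSP90 of the ER, had a log2 change of 0.26 ± 0.12 (edgeR adjusted p = 0.177). The ratio of HSPA8 to HSPA5 reads was 4.09 to 5.93 in the 5 tumours with MSC and 6.19 to 9.69 in the 4 without. The ER genes were listed with earlier results of these data known, and no test compared them with the cytosolic genes.

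Mitochondrial counterparts were mixed, with 2 of 9 called higher and 1 lower, against 4.18% and 3.6% of all tested genes. TRAP1, the mitochondrial HSP90, rose by 0.55 ± 0.12 (SE, edgeR adjusted p = 0.013) and the disaggregase CLPB by 0.54 ± 0.16 (0.0416). HSCB, the J-domain protein of iron-sulphur cluster assembly, fell by 0.53 ± 0.14 (0.0242). The call of TRAP1 was lost without tumour 12 (adjusted p = 0.063), that of CLPB without tumours 1, 6, 7, 9, 10, 12 or 15 (up to 0.143), and that of HSCB without tumours 1, 9, 10, 12 or 15 (up to 0.106). Without tumours 1 and 6 together none of these 3 was called (0.104, 0.212 and 0.0917), and without 12 and 15 together CLPB and HSCB were not. CLPB was also lost with the GC and length correction (0.124), library size only (0.0591) and limma-voom with quality weights (0.054). HSPA9 (mortalin), the mitochondrial HSP70, had a log2 change of -0.10 ± 0.10 and was not called.

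Hypoxia and immediate early genes are given beside these results. Both lists were chosen with earlier results of these data known, so their tests are not independent evidence that they differ. Of all tested genes, 4.18% were called higher and 3.6% lower. Of 12 hypoxia genes 6 were called higher, among them the glucose transporter SLC2A1 (log2 change 0.94 ± 0.15, edgeR adjusted p = 0.00183) and the lysyl oxidase LOX (0.87 ± 0.15, adjusted p = 0.00403), and the list's mean log2 level was 5.42 to 6.35 in the 5 tumours with MSC and 4.67 to 5.23 in the 4 without (exact two-sided permutation p = 0.00794, the smallest possible, adjusted over 10 lists 0.0397). Tumour 10 was the highest for them and was not among the 3 highest tumours for any of the 10 heat shock genes. Of 15 immediate early genes, which respond within minutes to growth factors and to handling of tissue, 5 were called higher and 0 lower, among them the phosphatase DUSP1 (log2 change 1.21 ± 0.25, edgeR adjusted p = 0.0177) and FOSB (0.95 ± 0.25, adjusted p = 0.0264). The call of DUSP1 was lost without tumours 9 or 12 (adjusted p up to 0.0712) and that of FOSB without tumours 6, 7, 9, 12 or 15 (up to 0.093). DUSP1 also lost its call with no filter (0.0598) and without tumours 1 and 6 together. FOSB also lost its call in limma-voom with quality weights (0.0755), without tumours 12 and 15 together, and with the GC and length correction. The immediate early list's mean log2 level was 4.83 to 5.54 with MSC and 4.41 to 4.82 without (exact two-sided permutation p = 0.0159, adjusted 0.0529). Its summed level overlapped, 1318 to 1853 CPM with MSC and 1351 to 1686 without, and 4 of the 15 genes had negative changes. The part of either list in the heat shock gene levels was not tested.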

How the data were processed

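Polysome-associated RNA of 9 xenograft tumours (5 with MSC, 4 without) was sequenced from TruSeq libraries, per the labels' protocols. The deposited files hold raw counts per gene symbol. The authors used CASAVA 1.8.1, TopHat 1.4.0, HTSeq and hg19, per the submitters' processing notes. No source used here gives the annotation, the use of strand, the rule for reads matching several genes or any removal of mouse reads, so conserved, overlapping and duplicated genes are uncertain. Lines for reads of no gene (10.2 to 12.1% of a library) were left out. No 2 libraries agreed within sampling noise (smallest chi-square per degree of freedom 24).

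Counts were tested with edgeR 4.0.16 in R 4.3.3 (filterByExpr, TMM, glmQLFit with robust=TRUE, Benjamini-Hochberg over 13458 genes). An SE is the log2 change divided by the square root of F. The test was checked on simulated counts. Marker lists were compared by exact permutation of the mean of log2(CPM + 0.05). Lengths came from GENCODE 29, matched by symbol to 88.3% of tested genes, and promoters from RefSeq. Genes named were the 10, their ER and mitochondrial counterparts, up to 4 called genes of each list or else its 2 most abundant, and the 5 genes nearest to CRYAB. The 10 genes and all lists were chosen with earlier results of these data known. Alternatives were other scaling factors, filters and tests (DESeq2 1.42.0, limma 3.58.1), HSPA1A and HSPA1B summed, and leaving out each tumour. Leaving out tumours 1 and 6 or 12 and 15 together and a GC and length correction (splines with 4 degrees of freedom) were added after seeing the data.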

Additional observations from a re-analysis of the deposited data

Results flagged for a closer look

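Within groups of 4 or 5 tumours, 40 sets of values were checked for a tumour far from the rest by Dixon's criterion, which chance alone meets in about 1 in 20 groups, and 5 met it. CRYAB in tumour 13 without MSC was at -0.437 log2 CPM, above the other 3, which lay close together. Tumour 15 with MSC was far above its group for fibroblast and MSC markers (mean log2 level 3.286) and for adipocyte markers (-1.13). Tumour 9 was above its group for skeletal muscle markers (-2.216), and tumour 11 for leukocyte markers (0.063), both without MSC. No other value of the 10 genes stood apart in this way.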

How the results depend on the processing

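No paired analysis was possible because the groups share no replicate numbers. None of the results changed direction as a call. Leaving out 1 tumour gave 151 to 985 genes called higher and 94 to 863 lower (563 and 484 with all tumours), 1 to 3 of the 10 genes called higher, and 0 to 3 other pathway genes called higher and 1 to 5 lower. Without tumours 1 and 6 the counts were 74 genes higher and 51 lower, 0 of the 10 genes, and 0 and 1 other pathway genes. Without tumours 12 and 15 they were 201 and 101, 4 of the 10 genes (CRYAB, HSPB1, HSPB8 and DNAJB1), and 0 and 1. DESeq2 called 856 genes higher and 790 lower and 3 and 5 other pathway genes. Limma-voom called 289 genes lower, 1 of the 10 genes, and 2 and 1 other pathway genes. With no filter 1 of the 10 genes was called, HSPB1 being lost. The filter of 5 CPM in at least 4 libraries left CRYAB and HSPB8 untested, and with it 1 of the 10 genes and 2 other pathway genes were called higher. Robust=FALSE and the GC and length correction each gave 2 other pathway genes higher and 1 lower. With a pseudocount of 0.5 CPM the fibroblast and MSC list differed by 0.581 in mean log2 level (exact permutation p = 0.0397). CRYAB (11 to 225 counts) and HSPB8 (5 to 93) rest on few reads. The cause of these differences between settings was not tested.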
